A study of Drosophila melanogaster with 2 samples.

Results

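The genes described here are 7 components of Drosophila dosage compensation, namely lncRNA:roX1, lncRNA:roX2, msl-1, msl-2, msl-3, mle and mof. They were taken by name from the 18164 genes annotated on the 6 arms that carry peaks, and 2 of them are noncoding RNA genes while 5 encode proteins. For each, the summits of chromatin immunoprecipitation (ChIP) peaks were counted within 500 bp of an annotated transcription start, inside the gene and within 5 kb of it, together with the rank of the peak by its signal. The precipitated protein was ADD1, which has an ADD domain and is a known partner of HP1a, the main protein of fly heterochromatin. It carried GFP at its C terminus in a transgenic line, and an antibody against GFP was used. The material was whole embryos of 0 to 24 h with both sexes mixed, in 2 biological replicates of 1 group. A single line supplied both, and a mixture of sexes, ages and cell types gives an average over all of them, so binding in male embryos alone was not measured. No second group exists, and the control of the experiment was not analysed here.

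In Drosophila males, the MSL complex binds the single X chromosome and raises its transcription. MSL1 is the scaffold, MSL2 a RING finger protein made in males, MSL3 a chromodomain protein, MLE an RNA helicase and MOF the acetyltransferase of lysine 16 on histone H4. The roX RNAs, both encoded on X, are parts of the complex, and each roX gene is known to contain a GA-rich entry site from which the complex spreads. In females, Sex-lethal and its partner UNR block translation of the msl-2 mRNA.

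Peak lists of 3 kinds were compared, 4 lists in all: 1 per replicate, 1 called on both replicates together (the joint list) and 1 kept by the authors for its irreproducible discovery rate (the IDR list). The IDR list held 7944 peaks, with a median width of 231 bp and 1485 of them on X, and it was identical to the strongest 7944 peaks of the joint list. Each of the other lists held 30000 peaks. A rank of 1 is the highest signal of a list. The signal is the authors' value on a scale that is not given, so it was read only within a list, and the sequencing depth is unknown. Of the IDR peaks, 192 (2.42%) had no summit of replicate 1 within 200 bp and 93 (1.17%) had none of replicate 2.

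In the IDR list, ADD1 peaks lay at the starts of both roX genes and at none of the starts of the 5 protein genes of the complex. An IDR summit lay within 500 bp of a start in 2 of the 7 genes, against 22.9% of all genes. The share of all noncoding RNA genes with such a summit was 12.6%, and that of all protein-coding genes was 26.1%. Inside the gene itself an IDR summit was found in 1 of the 7, lncRNA:roX1, against 14.8% of all genes. Within 5 kb, 6 of the 7 had one, against 50.9% of all genes, the exception being msl-3. With 7 genes, these counts describe the genes and were not tested.

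**Figure D1:**
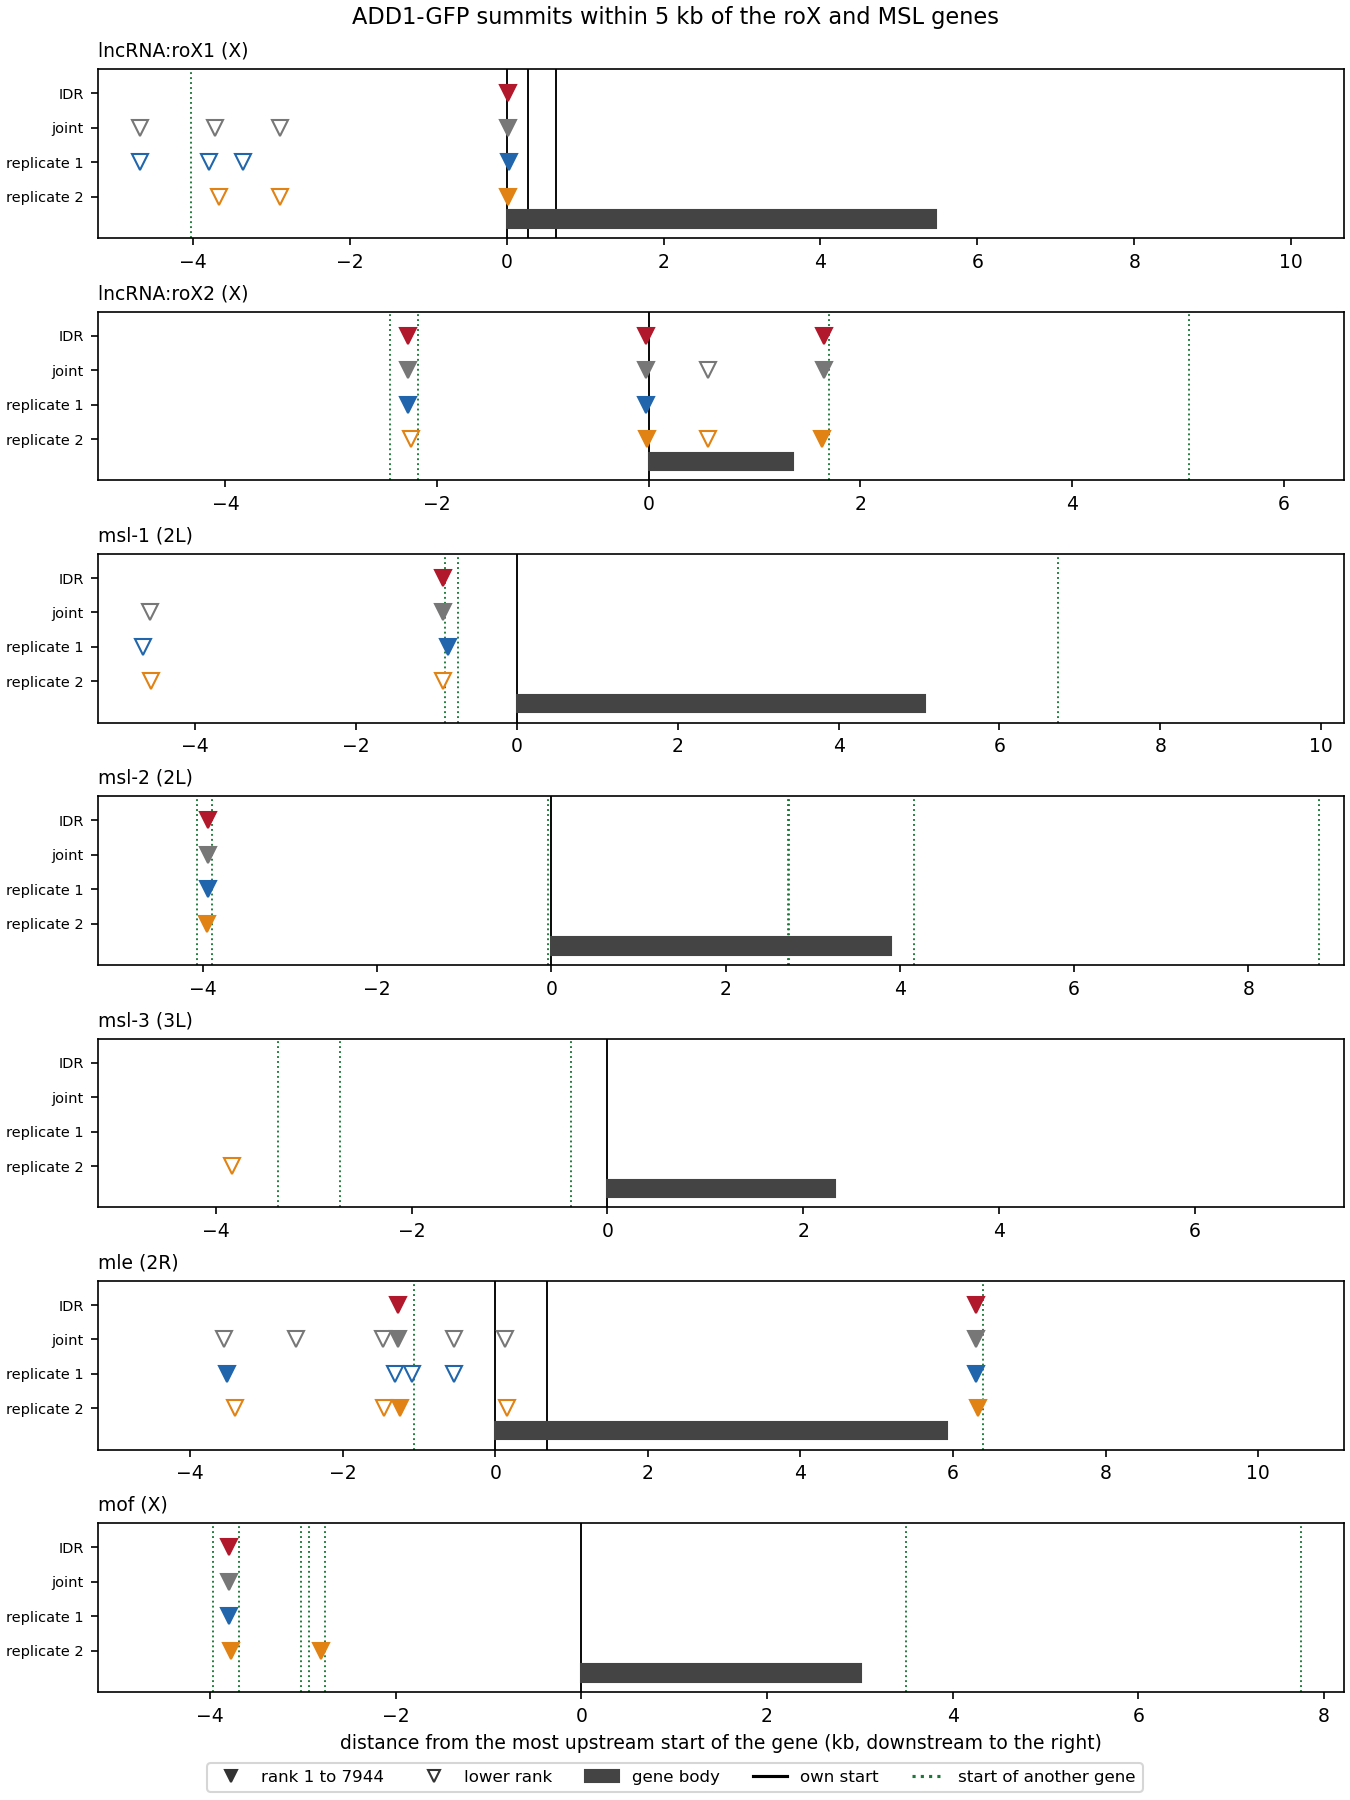
Summits of ADD1-GFP within 5 kb of each of the 7 genes in the IDR, joint and replicate lists, by distance from the gene's most upstream start in kb (downstream to the right). Filled triangles are summits of rank 1 to 7944, open ones are weaker, solid lines are the gene's own starts and dotted lines the starts of other genes. Triangles sit on the own start in both roX genes, and the filled triangles near the 5 protein genes lie outside the gene bodies.

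The gene lncRNA:roX1 (FBgn0019661, chrX:3857230-3862697, minus strand, 5468 bp, 3 starts) had 1 IDR peak, at its most upstream start. The peak was 157 bp wide (chrX:3862627-3862783, dm6), and its summit lay in the exon, 23 bp downstream of the start. No other gene had a start within 500 bp of it. The 201 bases centred on that summit are shown because they are where the signal peaked in the IDR list; they are given on the strand of the gene (chrX:3862574-3862774, Release 6), in lower case throughout because none of the words described further on occurs in them.
roX1 summit: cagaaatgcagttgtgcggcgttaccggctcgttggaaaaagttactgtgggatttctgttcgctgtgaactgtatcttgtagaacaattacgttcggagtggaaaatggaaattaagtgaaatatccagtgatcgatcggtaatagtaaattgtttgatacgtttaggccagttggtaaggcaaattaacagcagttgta
The signal was 393.3 with rank 2049 in the IDR list. Replicate 1 had a summit 37 bp downstream of the start with rank 2016 (signal 229.7), and replicate 2 had a summit 23 bp downstream with rank 2437 (signal 165.2). Both replicates thus placed the peak in the first bases of the gene and at similar ranks. No other summit fell inside the gene in any list. The joint list added 3 weak summits upstream, with ranks of 18897, 23930 and 28905, all in introns of the neighbouring gene yin.

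The gene lncRNA:roX2 (FBgn0019660, chrX:11579065-11580432, plus strand, 1368 bp, 1 start) had the stronger of the 2 roX peaks. Its IDR peak was 260 bp wide (chrX:11578920-11579179, dm6), and the summit lay 24 bp upstream of the start, which was again the only start within 500 bp. The 201 bases centred on the summit follow, on the strand of the gene (chrX:11578941-11579141, Release 6). The capitals mark GGTCACACT, a word of the kind bound by the promoter factor M1BP, which begins 11 bp downstream of the start and 35 bp from the summit.
roX2 summit: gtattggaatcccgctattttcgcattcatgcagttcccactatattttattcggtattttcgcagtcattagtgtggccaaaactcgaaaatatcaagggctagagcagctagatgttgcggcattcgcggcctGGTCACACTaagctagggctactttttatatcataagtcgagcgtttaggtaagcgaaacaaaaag
The signal was 551.7 with rank 1126 in the IDR list. Replicate 1 had its summit 22 bp upstream of the start with rank 1263 (signal 304.2), and replicate 2 had it 20 bp upstream with rank 1230 (signal 237.1). The ranks of the replicates were closer to each other here than at lncRNA:roX1. A weak further summit lay 558 bp downstream of the start in the exon, with rank 24219 in the joint list and 13513 in replicate 2, and replicate 1 had none there.

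Counted from the strongest peak, lncRNA:roX2 lay within the first 14.2% of the IDR list and lncRNA:roX1 within the first 25.8%. The signal at lncRNA:roX2 was 2.27 times the median of the IDR list and that at lncRNA:roX1 was 1.62 times that median. Among the 1485 IDR peaks on X, lncRNA:roX2 ranked 241 and lncRNA:roX1 ranked 428. Among the 3903 IDR peaks within 500 bp of any start they ranked 673 and 1239, in the same order. Against the 221 IDR peaks that lay at starts of noncoding RNA genes only, lncRNA:roX2 ranked 21 and lncRNA:roX1 ranked 47, so most peaks of that kind were weaker than either. Among the 3965 genes with an IDR summit at a start and a rank there in both replicates, the genes closest to lncRNA:roX1 in both ranks were Cnx99A (2029 in replicate 1 and 2335 in replicate 2), Taldo (2079 and 2387) and lncRNA:CR42794 (2082 and 2489). Those closest to lncRNA:roX2 were snoRNA:Or-ACA6 (1254 and 1280) and a pair of X-linked noncoding entries that share 1 summit, FBtr0304439_df_nrg and FBtr0304440_df_nrg (1302 and 1204). Likeness here was the smallest sum of differences in log10 rank over the 2 replicates.

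The GA-rich stretches of the roX genes did not coincide with the summits. The word GAGAG, the core of sites for the GAGA factor, occurred 5 times in lncRNA:roX1, and all 5 fell within 109 bp (chrX:3861247-3861355), 1342 to 1450 bp downstream of the start. In lncRNA:roX2, 5 of 6 matches fell within 70 bp (chrX:11580204-11580273), 1139 to 1208 bp downstream of the start. Overlapping matches on either strand were counted. Both stretches are shown with 10 bases on each side, on the strand of the gene, and the capitals mark GAGAG or its longer form GAGAGAGA on either strand.
roX1 GA stretch: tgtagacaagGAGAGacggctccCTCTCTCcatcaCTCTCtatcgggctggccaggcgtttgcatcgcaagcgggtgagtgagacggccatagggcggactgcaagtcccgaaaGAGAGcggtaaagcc
roX2 GA stretch: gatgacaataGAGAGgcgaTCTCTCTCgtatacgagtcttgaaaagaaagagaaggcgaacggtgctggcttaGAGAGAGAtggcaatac
The nearest IDR summit was 1319 bp from the stretch in lncRNA:roX1, and the nearest summits of replicate 1 and replicate 2 were 1305 bp and 1319 bp away. The stretch in lncRNA:roX2 was 449 bp from the nearest IDR summit, which is that of the next gene, nod. Its nearest summit was 1161 bp away in replicate 1 and 425 bp away in replicate 2, since replicate 1 had no summit at nod. No summit of any list fell within either stretch. The remaining GAGAG of lncRNA:roX2, 487 bp downstream of the start, was 513 bp from the nearest IDR summit. It lay 69 bp from the weak joint summit of rank 24219 and 72 bp from that of replicate 2. Within 100 bp of the summits at the roX starts, GAGAG had no match, while 29.7% of all IDR peaks and 29.6% of all promoters (250 bases before to 50 after the most upstream start) held it. GAGAGAGA was present around 2.98% of all IDR peaks and in 2.82% of promoters, and the further GA-rich word GAGAAAGAG around 0.906% and in 0.639%. The word TATCGATA, known from sites of DREF and BEAF-32, was present around 4.24% of IDR peaks and in 7.52% of promoters, and GGTCACACT around 2.76% and in 4.79%. The first roX gene had none of the 5 words around its summit, and lncRNA:roX2 had only GGTCACACT. The windows around peaks and promoters differ in width, so their shares are not directly comparable. Whether these letters are bound was not measured.

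**Figure D2:**
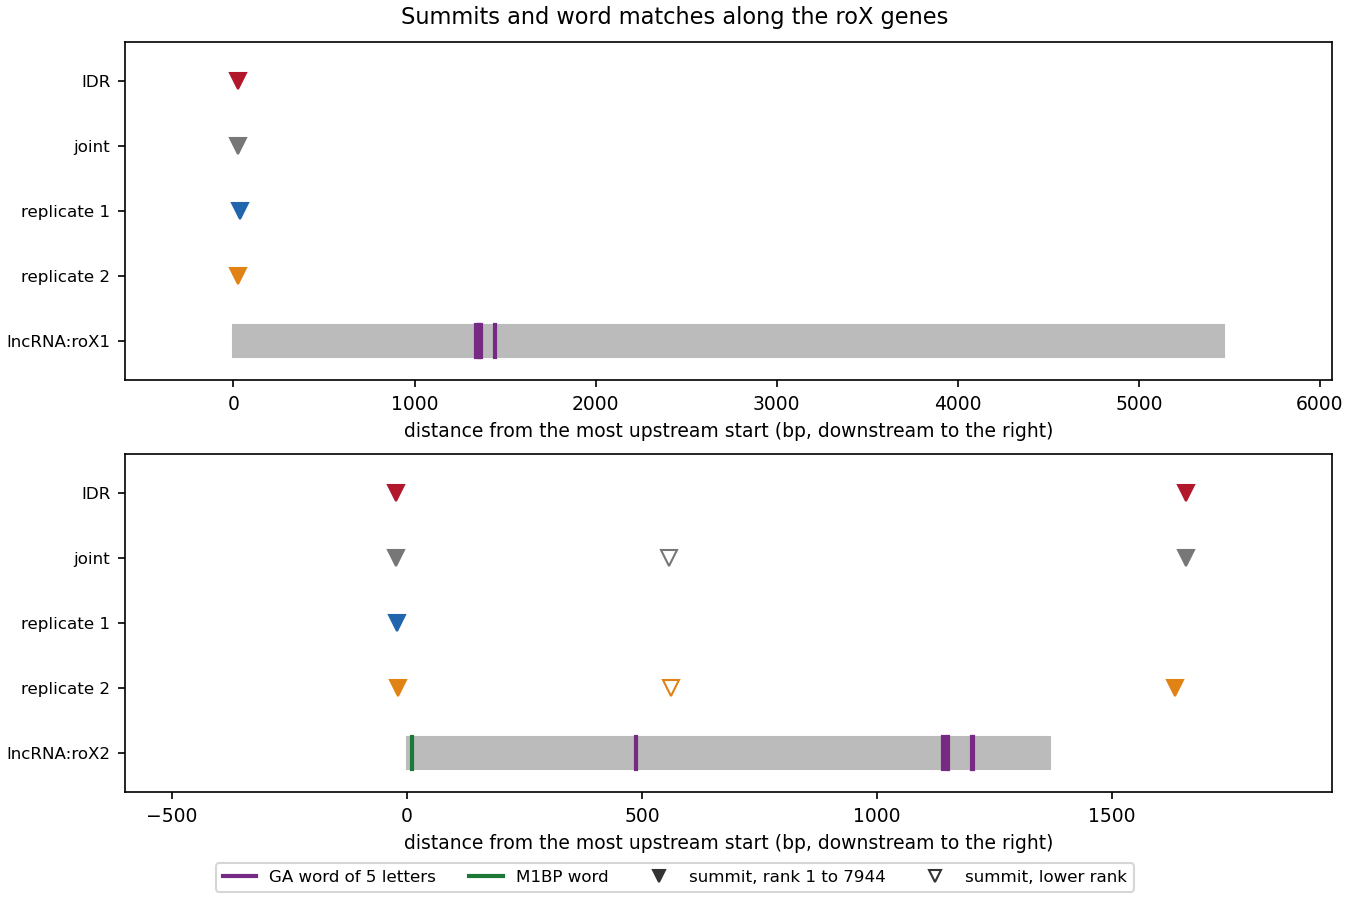
Summits in each list and matches of the GA word (GAGAG) and the M1BP word (GGTCACACT) along lncRNA:roX1 (top) and lncRNA:roX2 (bottom), by distance from the most upstream start in bp. Filled triangles are summits of rank 1 to 7944 and open ones are weaker. The 5 GA words of lncRNA:roX1 lie 1342 to 1450 bp from the start while every summit drawn there is within 37 bp of it.

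The genes next to the roX genes carried ADD1 peaks at starts of their own, close by only at lncRNA:roX2. For yin, a peptide transporter gene upstream of lncRNA:roX1, the IDR peak had rank 1533 and signal 466.1 and lay 5928 bp from the roX1 start. For ec, which overlaps the far end of lncRNA:roX1, it had rank 2474 and signal 350.6 and lay 50537 bp from that start. Around lncRNA:roX2, a peak 50 bp from the start of nod, which encodes a kinesin-like protein, had rank 2492 in the IDR list, rank 1722 in replicate 2 and no counterpart in replicate 1. A weaker peak between CG11695 and e(y)2 had rank 6745 in the IDR list, 5413 in replicate 1 and 10189 in replicate 2. The word GGTCACACT also occurred 79 bp from the summit at nod.

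The gene msl-1 (FBgn0005617, chr2L:18683720-18688800, minus strand) had no summit at its start or inside it in any list. Its nearest IDR summit lay 916 bp upstream of its start and 25 bp from the start of CG10336, in the 5′ untranslated region of that gene. It was one of the weakest of the IDR list, with rank 7870 and signal 131.4. The rank was 7387 in replicate 1 and 8840 in replicate 2, so replicate 2 alone would not place it among the strongest 7944. The neighbour on the other side, CG31751, had a strong IDR peak at a start (rank 269, signal 1136.0), with its summit 11250 bp from the msl-1 start. Inside msl-1 the word GAGAG occurred 6 times without a summit.

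The gene msl-2 (FBgn0005616, chr2L:3462218-3466112, minus strand) had no summit within 500 bp of its start and none inside it in any list. The nearest summit in the IDR list lay 3938 bp upstream, between the divergent genes Pif1, a DNA helicase gene, and CG31776, and 46 bp from the start of Pif1. That peak was stronger than either roX peak, with signal 884.9 and rank 461 in the IDR list, rank 528 in replicate 1 and rank 365 in replicate 2. The start of ND-PDSW, a gene of respiratory complex I, is 45 bp from that of msl-2, and it had no IDR summit either, nor did CG3246 on the other side. The msl-2 start has the same M1BP word as lncRNA:roX2, beginning 25 bp downstream of the start. It is shown with 10 bases on each side (chr2L:3466069-3466097, minus strand, Release 6), next to the 177 bases between the starts of Pif1 and CG31776 (chr2L:3470005-3470181, minus strand), because one holds a word without a peak and the other held the strongest IDR peak within 5 kb of any of the 7 genes. The capitals mark GGTCACACT in the first and TATCGATA in the second.
msl-2 start: ggcacactgcGGTCACACTggcttcgctc
Pif1 and CG31776 interval: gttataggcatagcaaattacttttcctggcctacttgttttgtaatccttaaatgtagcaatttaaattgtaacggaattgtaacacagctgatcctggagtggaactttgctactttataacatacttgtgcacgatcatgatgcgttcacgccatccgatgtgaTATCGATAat
A second TATCGATA lies inside Pif1, so that the words begin 43 bp and 63 bp from the summit. Inside msl-2, GAGAG had 7 matches and GGTCACACT 1, and the other words had none.

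The gene msl-3 (FBgn0002775, chr3L:7123213-7125533, minus strand) stood farthest of the 7 from ADD1 summits in the IDR list, the joint list and replicate 1, but not in replicate 2. Its nearest IDR summit lay 7263 bp from its start, against a median of 5923 bp over all genes (quartiles 720 and 17025 bp). The joint list and replicate 1 had no summit within 5 kb. Replicate 2 had 1, in the 3′ untranslated region of Acbp6 at 3832 bp, with rank 18886 and signal 29.31, while the nearest to msl-2 in replicate 2 was 3959 bp away. The gene BBS1, whose start is 372 bp from that of msl-3, had no IDR summit at its start. The overlapping gene form3 had one of rank 4882, 30702 bp from the msl-3 start. The 120 bases before the start hold both promoter words without a peak: TATCGATA begins 47 bp and GGTCACACT 100 bp upstream of the start. They are given on the strand of the gene (chr3L:7125534-7125653, Release 6) with both words in capitals.
msl-3 upstream: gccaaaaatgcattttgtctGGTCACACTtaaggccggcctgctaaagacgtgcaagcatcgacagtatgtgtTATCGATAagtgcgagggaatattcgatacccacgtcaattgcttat
Of all promoters with TATCGATA, 37.7% had an IDR summit at a start of the gene, and of those with GGTCACACT 36.2% did. For GAGAGAGA the share was 35.2%, for GAGAAAGAG 37.1% and for GAGAG 25.9%. These stand beside the 22.9% of all genes and 26.1% of protein-coding genes given above, and the differences were not tested.

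The gene mof (FBgn0014340, chrX:5873840-5876853, minus strand) is the only protein gene of the complex on X among the 5. It too had no summit at its start or inside it in any list. Its nearest IDR summit lay 3792 bp upstream, in the 5′ untranslated region of CG16721 and 111 bp from a start of that gene. The peak had signal 437.7 and rank 1707 in the IDR list, rank 1527 in replicate 1 and rank 2258 in replicate 2, where its distance was 3773 bp. Replicate 2 also had a summit of rank 2610 (signal 157.9) in the 5′ untranslated region of Usp30, which replicate 1 lacked. The flanking genes GAA1 and Usp30 had no IDR summit at their starts.

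The gene mle (FBgn0002774, chr2R:5974857-5980778, minus strand, 2 starts) was the only protein gene of the complex with any summit at its own start, and that summit was weak. In the joint list it lay 134 bp from a start, in a coding exon, with rank 25172 and signal 37.82. Replicate 2 had it at 154 bp with rank 26916 (signal 19.42). The closest summit of replicate 1 lay 543 bp away, outside the gene, with rank 27673. Counting it, 3 of 7 genes had a summit at a start in the joint list (35.8% of all genes) and in replicate 2 (41.1% of all genes), against 2 of 7 in replicate 1 (35.9% of all genes). The IDR peaks near mle belonged to its neighbours. One lay 85 bp from the start of BubR1, a spindle checkpoint gene, with rank 574 (517 in replicate 1 and 750 in replicate 2). The other lay 1268 bp from an mle start in the 5′ untranslated region of Src42A, a tyrosine kinase gene, with rank 7421. Its nearest summit had rank 12118 in replicate 1 and 6966 in replicate 2, and a separate summit of rank 8966 lay beside it in replicate 1.

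In all 4 of the protein genes with an IDR summit within 5 kb, every such summit lay within 500 bp of the start of another gene. Over all genes with an IDR summit within 5 kb but none at a start, the same was true of 2633 of 5084 (51.8%).

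The genes that work with the complex were described in 3 lists, 17 genes in all. Of 9 partners in dosage compensation, 8 had an IDR summit at a start, against 22.9% of all genes and 26.1% of protein-coding genes. The partners were chosen with earlier results of these data known, so this share is a description and was not tested. The exception was Su(var)3-7, which encodes a heterochromatin protein. Sxl, Unr and Trl have 4 starts each, JIL-1 and scf have 2 each, and a summit at any of them counted. The strongest peak was at Trl, which encodes the GAGA factor, with rank 157 in the IDR list, 160 in replicate 1 and 153 in replicate 2. The regulators of msl-2 translation followed: Sxl, which encodes Sex-lethal, had rank 667 (567 in replicate 1 and 1048 in replicate 2), and Unr had rank 910 (989 in replicate 1 and 749 in replicate 2). That summit of Sxl lay 424 bp from a start, and another IDR summit lay 55 bp from a start. Top2, the gene of topoisomerase II, had rank 940 (993 in replicate 1 and 1007 in replicate 2). By the strongest summit at any start, these 4 genes thus ranked above both roX genes in the IDR list and in both replicates. The ranked summits of Trl and Sxl lay at starts other than the most upstream one, whereas both roX summits lay at the most upstream start. JIL-1, which encodes a histone H3 kinase enriched on the male X, had rank 2104 (1804 in replicate 1 and 3321 in replicate 2, where a separate summit 482 bp from a start ranked 1396), and scf, which encodes supercoiling factor, rank 3032 (3915 in replicate 1 and 2343 in replicate 2).

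The peaks at 2 partners depended on the replicate. Clamp encodes the zinc finger protein that binds GA-rich entry sites before the MSL complex, and its summit 89 bp from the start had rank 3967 in the IDR list, with 2453 in replicate 1 but 12541 in replicate 2. Set2, the gene of the histone H3 lysine 36 methyltransferase, had rank 1407 in the IDR list and 1621 in replicate 2, and no summit at its start in replicate 1. The Set2 summit was 119 bp from its start and only 49 bp from that of the adjacent gene CG1998.

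**Figure D3:**
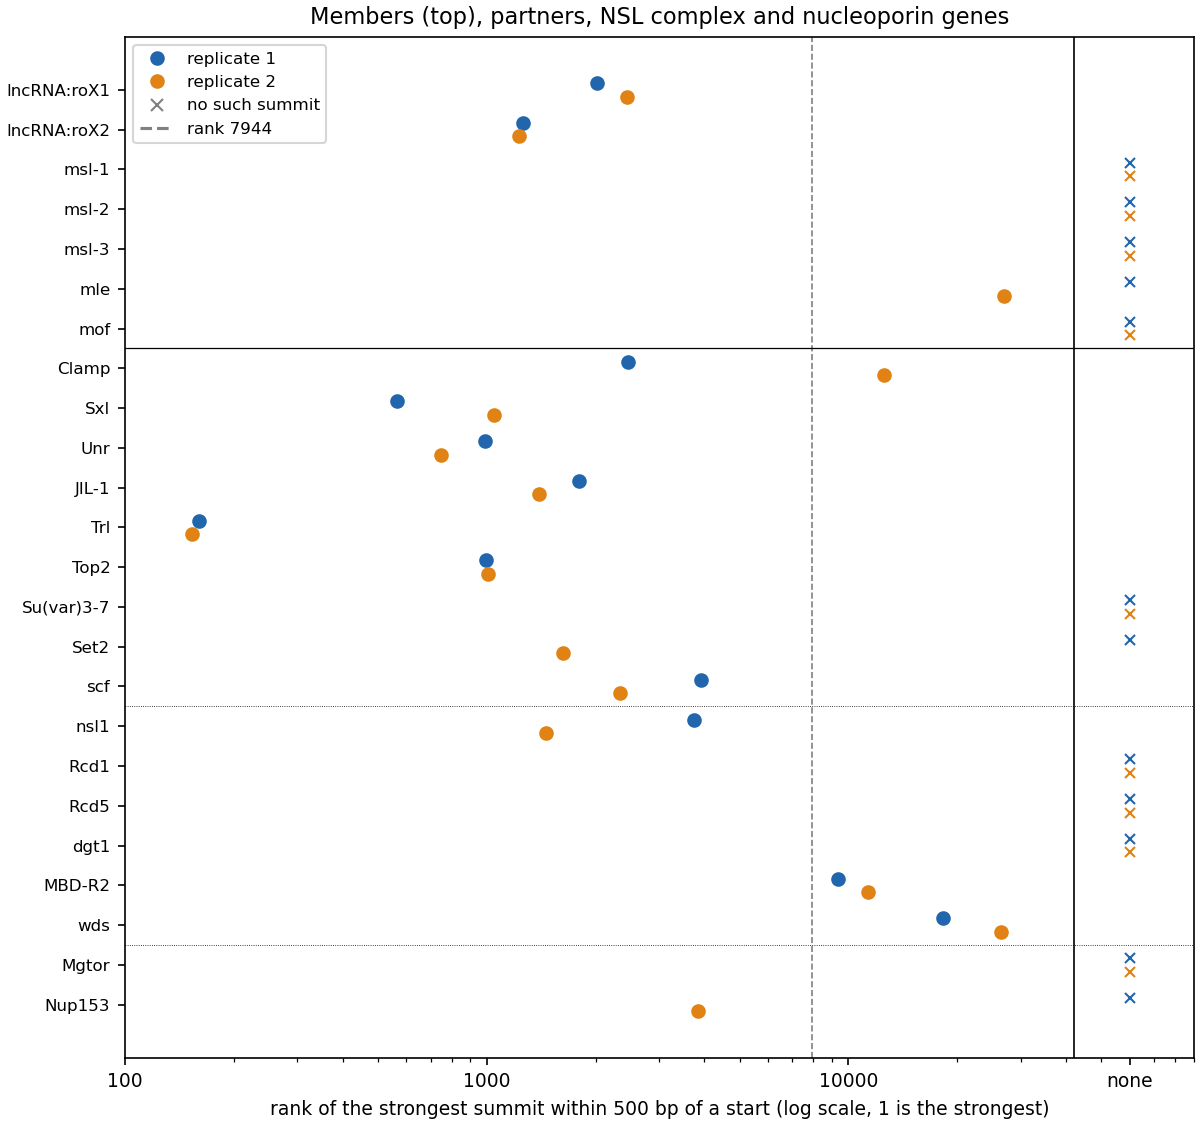
Rank of the strongest summit within 500 bp of a start in replicate 1 and replicate 2 (log scale, 1 is the strongest) for the 7 genes at the top, then partners, NSL complex and nucleoporin genes. Crosses mark genes without such a summit, and the dashed line is rank 7944. Both roX genes have similar ranks in both replicates, while Clamp lies on either side of the line.

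MOF also belongs to a second complex, the NSL complex, which acts at promoters in both sexes. Of its 6 other genes described, 1 had an IDR summit at a start, nsl1, with rank 2527 in the IDR list, 3732 in replicate 1 and 1456 in replicate 2. The joint list added wds, at rank 20537, which had weak summits at a start in replicate 1 (rank 18268) and replicate 2 (rank 26316). MBD-R2 had summits at its start in both replicates, with rank 9345 in replicate 1 and 11319 in replicate 2, but in neither the joint nor the IDR list. Rcd1, Rcd5 and dgt1 had none at a start in any list. Of the 2 nucleoporin genes whose proteins are known to associate with MOF, Mgtor (Megator) had no summit at a start in any list, and Nup153 had one in replicate 2 only, at rank 3835. The nearest IDR summit to Nup153, of rank 4228, lay 784 bp from its start. Across the 17 genes the count was 9 in the IDR list, beside the 22.9% of all genes given above. It was made up of 8 of 9 partners, 1 of 6 NSL genes (16.7%, near the share of all genes) and 0 of 2 nucleoporin genes. In replicate 1, 7 of 9 partners and 3 of 6 NSL genes had a summit at a start, against 35.9% of all genes. In replicate 2, 8 of 9 partners and 3 of 6 NSL genes did, against 41.1% of all genes. These gene lists are short and were not tested.

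**Figure D4:**
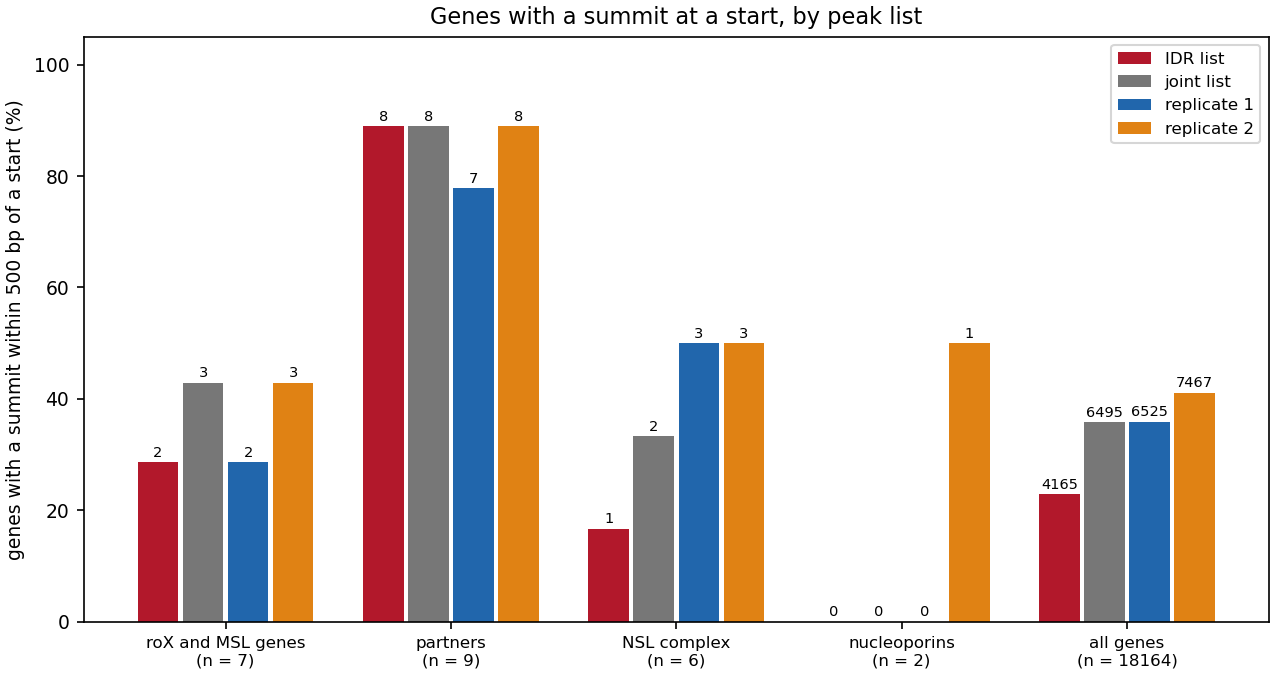
Percentage of genes with a summit within 500 bp of a start in the IDR list, the joint list and each replicate, for the 7 roX and MSL genes, 9 partners, 6 NSL genes, 2 nucleoporin genes and all 18164 genes; the number over each bar is the count of genes. Partners reach 8 of 9 in the IDR list, the roX and MSL genes 2 of 7 and all genes 4165 of 18164.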

How the data were processed

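Per the file headers and descriptions, the build was dm6 and peaks were deposited in 4 lists: 1 per replicate, 1 called on both replicates together and 1 after the IDR threshold. For the aligner, the peak caller and their versions nothing is given in the sources used here. The authors deposited a signal per peak on an unstated scale, which was used to rank peaks within a list. Replicates are biological replicates per the labels, with chromatin sheared by sonication and a size range of 200 to 800 bp.

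Genes and starts came from the Ensembl 115 annotation (FlyBase 6.54) and sequence from RefSeq's Release 6 genome, the build of the peaks. A summit counted for every gene with a start within 500 bp. Words were searched on both strands within 100 bp of summits. Counting was checked on simulated summits (Python 3.11.15, numpy 2.4.6, matplotlib 3.10.9). No test was run, since 1 group of 2 replicates allows no comparison and the 7 genes and the lists were chosen with earlier results of these data known. Genes were named by rule: the 7 genes, the 17 genes that work with them, every gene with a start within 500 bp of a summit named, the neighbours on either side, and the 3 genes closest in rank to each roX gene. Genes that contain a summit farther from a start were named by that position. Alternatives were other windows, the nearest start only, intervals in place of summits, the stronger peaks of the IDR list, the joint list and each replicate alone.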

Additional observations from a re-analysis of the deposited data

How the results depend on the processing

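Of 60 recalculations over 12 results, 52 stayed within 1.5 times a count or within 1 SD of the replicates for a rank. With so few genes this tolerance is wide, and with 2 close ranks it is narrow. Of the 60, 24 were counts of words, of which 3 fell outside it, and 5 of the other 36 did. The count of genes with an IDR summit at a start was 2 under windows of 200 bp, with only the 5′ end of the gene, with only the nearest start, with intervals in place of summits, in the stronger peaks of the IDR list and in the strongest 7944 peaks of each replicate. The share of all genes under these settings ran from 15.1% (stronger peaks) to 25.2% (replicate 2). A window of 1000 bp gave 3 (27.0% of all genes), adding msl-1 through the peak at CG10336. The joint list gave 3 (35.8%), adding mle. The count with an IDR summit inside the gene was 2 with intervals in place of summits (22.2% of all genes), adding lncRNA:roX2. It was 3 in the joint list (26.1%), against 1 as reported (14.8%). It was 1 in the strongest 7944 peaks of replicate 1 (14.8% of all genes) and of replicate 2 (16.1%). The weaker summits of replicate 2 inside lncRNA:roX2 and mle, described above, rank below 7944. With a reach of 2 kb 4 of the 7 genes had an IDR summit, beside 38.2% of all genes. With 10 kb 7 had one, beside 64.8% of all genes, against 6 within 5 kb (50.9%). Within 5 kb the count was 6 in the strongest 7944 peaks of replicate 1 (51.4% of all genes). It was 5 in those of replicate 2 (54.7%), where msl-1 was lost. Of the 17 further genes, 8 had a summit at a start in the strongest 7944 peaks of replicate 1 (22.7% of all genes). In those of replicate 2, 9 did (25.2%). Clamp was lost and Nup153 gained there without replicate 1, and Set2 was lost without replicate 2. The full lists gave 10 in replicate 1 (35.9% of all genes) and 12 in replicate 2 (41.1%). With only the 5′ end counted the total was 8, without Trl, and with only the nearest start it was 8, without Set2. A window of 1000 bp gave 10 of the 17 (27.0% of all genes), adding Nup153, and the joint list gave 10 (35.8%), adding wds.

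The rank at lncRNA:roX1 was 2016 to 2437 in the replicates alone, against 2049 in the IDR list. That at lncRNA:roX2 was 1230 to 1263, against 1126. Both replicate ranks of lncRNA:roX2 and the replicate 2 rank of lncRNA:roX1 fell outside the tolerance. Words around the strongest summit within 5 kb of a gene changed for 3 genes: within 50 bp there was 1 match at msl-2 and 0 at mle, and within 250 bp there was 1 at mof. The matches at the roX starts were the same in all windows and replicates.

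Ranks come from 2 replicates of unknown depth, and no control was analysed here. The lists of 30000 peaks are of fixed length, so weak ranks such as those at mle lie near the end of a list.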
